A study of Mus musculus with 5 samples.

Results

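The 10 genes described here are the immediate early genes Fos, Fosb, Jun, Junb, Egr1, Egr2, Atf3, Ier2, Dusp1 and Nr4a1, out of 24421 genes counted in mouse kidney cortex. They were taken by gene symbol from the count data of each mouse. The list was chosen by symbol with the fold changes between the genotypes in these same mice in view, so the difference of each gene between Fnip1 null and wildtype kidney is given as a description, and its adjusted p-value is not evidence about the list.

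Immediate early genes are transcribed within minutes of a stimulus, from factors that are already present in the cell, and their mRNAs are short-lived. Growth factors, cytokines, calcium and cell stretch all reach them through the MAP kinases and protein kinase A, which act on serum response factor with its ternary complex partners and on CREB at the promoter. Most of the products are transcription factors that carry the signal on to later genes, and a few, such as the phosphatase Dusp1, shut the signal off. In kidney they are known for their brisk response to ischemia and tubular injury.

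The counts analysed here come from RNAseq of cortical kidney tissue of 3 Fnip1 null mice (8637, 9121 and 9210; Fnip1-/-) and 2 wildtype mice (9055 and 9056; Fnip1+/+), all of strain C57BL6J, with 1 library per mouse and no treatment. The null allele came from chemical (ENU) mutagenesis and is present in every cell of the mouse, so no cell type was targeted. The study's text also calls the controls heterozygous, and the labels, which give Fnip1+/+, are followed here. It also describes more wildtype mice than the 2 analysed here. The labels give neither the age nor the sex of a mouse. The study gives an age range in weeks for its RNAseq mice, but not the age of each mouse. The time between death and freezing is not given in the sources used here. The comparison asks how loss of Fnip1, a partner of folliculin and of the energy sensor AMPK, changes transcription in the kidney.

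Counts on genes ranged from 15799114 to 19132145 per mouse, and 3 counts, taken here as the lowest level told apart from none, were 0.158 to 0.186 normalized CPM (counts scaled to a common library size, after TMM). Fnip1 itself was at 21.0, 16.0 and 16.9 normalized CPM in null mice 8637, 9121 and 9210 and at 51.7 and 48.6 in wildtype mice 9055 and 9056, a log2 fold change of -1.48 ± 0.14 (SE) with an adjusted p of 0.0313 by edgeR's quasi-likelihood test. Mouse 9121 stood apart from the other mice. Its Xist level was 314 normalized CPM and its count of the Y-linked gene Ddx3y was 0. The other 4 mice had 0.171 to 1.41 and 42.8 to 52.1 normalized CPM of these genes. By these genes mouse 9121 was female and the other 4 mice male, so sex was not balanced between the genotypes. Fold changes, list medians and spreads are therefore also given without mouse 9121 where it moves them. Markers of the proximal tubule, podocytes and endothelium were present in every mouse. The B cell marker Cd79a was at a count of 0 in all 3 null mice, which allows up to 0.178 normalized CPM, and at 0.745 and 0.343 normalized CPM in the wildtype mice.

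The AP-1 genes encode the leucine zipper proteins that pair into the AP-1 dimer. Fos, the partner that cannot bind DNA as a homodimer, was at 0.648, 2.27 and 0.891 normalized CPM in null mice 8637, 9121 and 9210 and at 0.621 and 0.286 in wildtype mice 9055 and 9056. These were counts of 11, 43 and 15 against 10 and 5. Mouse 9121 was far above the rest, and the lowest null mouse exceeded the higher wildtype mouse by only 1.04 times, 11 counts against 10. Its log2 fold change was 1.50 ± 0.70 (SE), and 0.77 without mouse 9121. Fosb, the close relative of Fos, was near the floor, at 0.648, 0.633 and 0.356 normalized CPM in the same null mice and at 0.310 and 0.114 in the wildtype mice. Its counts, 29 over the null mice and 7 over the wildtype mice, gave a ratio of 2.64 with an exact 95% interval of 1.13 to 7.13 for counting error alone. Each value is an average over all cells of the cortex, so more cells of a type and more RNA per cell cannot be told apart.

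Fos lies at chr12:85473890-85477273 on the plus strand (GENCODE M21, GRCm38) and Jun, a gene of 1 exon, at chr4:95049034-95052222 on the minus strand. The 250 bases before the start of each gene are shown because Fos holds the letters TGACG and Jun does not. Capitals mark TGACG, the cyclic AMP response element half-site, on either strand, and in Fos the TATA box TATAAA. The sequences are from RefSeq on GRCm38.p6, with Fos on the plus strand at chr12:85473640-85473889 and Jun on the minus strand at chr4:95052223-95052472.
Fos: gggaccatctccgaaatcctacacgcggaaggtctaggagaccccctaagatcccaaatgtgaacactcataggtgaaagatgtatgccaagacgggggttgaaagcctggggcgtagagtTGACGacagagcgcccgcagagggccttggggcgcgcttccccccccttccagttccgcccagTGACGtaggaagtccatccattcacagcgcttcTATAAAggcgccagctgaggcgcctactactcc
Jun: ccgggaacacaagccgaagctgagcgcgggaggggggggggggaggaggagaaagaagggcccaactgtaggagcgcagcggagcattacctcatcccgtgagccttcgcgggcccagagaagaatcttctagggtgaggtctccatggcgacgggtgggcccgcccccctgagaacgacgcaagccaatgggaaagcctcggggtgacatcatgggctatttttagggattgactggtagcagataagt
The Fos half-sites start 129 and 66 bases before the start, and its TATA box 33 bases before it.

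Jun, the main partner of Fos, was among the most abundant of the 10 genes. It was at 49.1, 61.8 and 49.8 normalized CPM in null mice 8637, 9121 and 9210 and at 36.3 and 28.5 in wildtype mice 9055 and 9056. The null mice lay close together and 1.35 times or more above the higher wildtype mouse. Jun had a log2 fold change of 0.73 ± 0.16 (SE), the smallest error of the 8 genes that were tested, and 0.61 without mouse 9121. Junb, the Jun relative that often opposes Jun in growth control, was at 14.8, 23.0 and 11.9 normalized CPM in the null mice and at 11.7 and 9.26 in the wildtype mice. Only mouse 9121, and to a lesser extent 8637, stood clear of the wildtype values, and null mouse 9210 was 1.02 times the higher wildtype mouse. For Junb the log2 fold change was 0.67 ± 0.30 (SE), and 0.35 without mouse 9121. Jun shares 232 exonic bases with the antisense gene Junos, and Junb, at chr8:84974484-84978718 on the minus strand, shares 173 with Prdx2. The strand setting of the counting is not given in the sources used here, so reads of these stretches cannot be told apart.

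The zinc finger factors Egr1 and Egr2 are the classic serum response factor targets. Egr1 was at 6.36, 18.7 and 6.48 normalized CPM in null mice 8637, 9121 and 9210 and at 4.59 and 2.00 in wildtype mice 9055 and 9056. Mouse 9121 had 2.89 times the Egr1 level of the next null mouse, and the wildtype mice themselves differed by 2.30 times. Egr1 had a log2 fold change of 1.68 ± 0.62 (SE) with all 5 mice and 0.97 without mouse 9121. Egr2, known for its part in myelination and in T cell tolerance, was close to the floor, at 0.236, 0.528 and 0.832 normalized CPM in the null mice and at 0.124 and 0.114 in the wildtype mice. Here mouse 9210 and not 9121 was highest. The 28 counts over the null mice against 4 over the wildtype mice gave a ratio of 4.46 with an exact 95% interval of 1.56 to 17.5 for counting error alone, and the wildtype values, 2 counts each, were not distinguished from none.

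Of the 8 genes with a RefSeq promoter entry, only Egr2 (chr10:67535475-67542188, plus strand) held a CArG box within 250 bases before a start. These are the letters that serum response factor binds. Bases further upstream were not searched, so a box there is not excluded for any of the genes. A different box, CCTTTTTTGG, lay 72 bases before another RefSeq start of Egr2. The 30 bases round the box CCATATATGG are shown to place it beside a half-site. Capitals mark the CArG box and, on the opposite strand, TGACG, in the plus strand of chr10:67537789-67537818 (RefSeq, GRCm38.p6).
Egr2: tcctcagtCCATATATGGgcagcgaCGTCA

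Nr4a1 encodes an orphan nuclear receptor (Nur77) that is active as soon as it is made. It was at 10.8, 20.2 and 7.43 normalized CPM in null mice 8637, 9121 and 9210 and at 3.66 and 3.26 in wildtype mice 9055 and 9056. It had the clearest separation of the 8 tested genes. Its lowest null mouse had 2.03 times the level of the higher wildtype mouse, while the wildtype mice differed by 1.12 times. The log2 fold change was 1.89 ± 0.45 (SE), and 1.40 without mouse 9121. The gene spans chr15:101254269-101274795 on the plus strand. Its promoter is shown because it holds more half-sites than any of the other 7 genes with an entry, all 4 on the opposite strand and given in capitals, at 233, 213, 69 and 40 bases before the start (RefSeq, GRCm38.p6, plus strand of chr15:101266596-101266845). That RefSeq start lies 12577 bases inside the annotated span, and the Atf3 one 34706 bases inside its own.
Nr4a1: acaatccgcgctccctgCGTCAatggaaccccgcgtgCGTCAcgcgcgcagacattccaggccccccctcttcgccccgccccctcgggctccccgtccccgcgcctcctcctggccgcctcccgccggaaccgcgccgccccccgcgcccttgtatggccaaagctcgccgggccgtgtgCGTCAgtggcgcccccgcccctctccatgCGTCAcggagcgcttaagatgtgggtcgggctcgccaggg

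Atf3, a leucine zipper factor of the ATF family that is induced by stress and represses many of its targets, was at 4.0, 5.33 and 2.26 normalized CPM in null mice 8637, 9121 and 9210. The wildtype mice 9055 and 9056 had 1.80 and 1.03 normalized CPM. Mouse 9210 was 1.25 times the higher wildtype mouse, and the other null mice were well above it. The log2 fold change of Atf3, at chr1:191170296-191218039 on the minus strand, was 1.46 ± 0.46 (SE) and 1.15 without mouse 9121. Ier2, a small nuclear protein encoded by a single exon at chr8:84661331-84662852 on the minus strand, was at 8.48, 15.4 and 10.3 normalized CPM in the null mice and at 8.13 and 6.80 in the wildtype mice. Null mouse 8637 was 1.04 times wildtype mouse 9055, so the genotypes barely separated. The log2 fold change of Ier2 was 0.61 ± 0.28 (SE) with all mice and 0.33 without mouse 9121.

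Dusp1, the nuclear phosphatase that inactivates p38, JNK and ERK and so limits the signals that induce it, was the only gene of the 10 whose genotypes overlapped. It was at 49.9, 56.3 and 69.6 normalized CPM in null mice 8637, 9121 and 9210 and at 51.3 and 33.2 in wildtype mice 9055 and 9056. Mouse 8637 lay below wildtype mouse 9055, and mouse 9210 was highest. The log2 fold change was 0.47 ± 0.22 (SE), the lowest of the tested genes, and 0.50 without mouse 9121. It depended more on the wildtype mice, at 0.19 without 9056 and 0.82 without 9055. Dusp1 alone held the full palindrome TGACGTCA, 143 bases before its start, and its upstream bases are shown for that reason with the half-sites in capitals. They run from 250 to 48 bases before the start, on the minus strand of chr17:26508520-26508722 (RefSeq, GRCm38.p6), where the start is that of RefSeq. The annotated span of the gene, chr17:26505590-26562128, begins 53656 bases further upstream.
Dusp1: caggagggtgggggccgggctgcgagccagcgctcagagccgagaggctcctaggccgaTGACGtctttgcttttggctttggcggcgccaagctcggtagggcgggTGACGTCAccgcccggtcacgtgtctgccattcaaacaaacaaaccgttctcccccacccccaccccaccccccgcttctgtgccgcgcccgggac

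**Figure D1:**
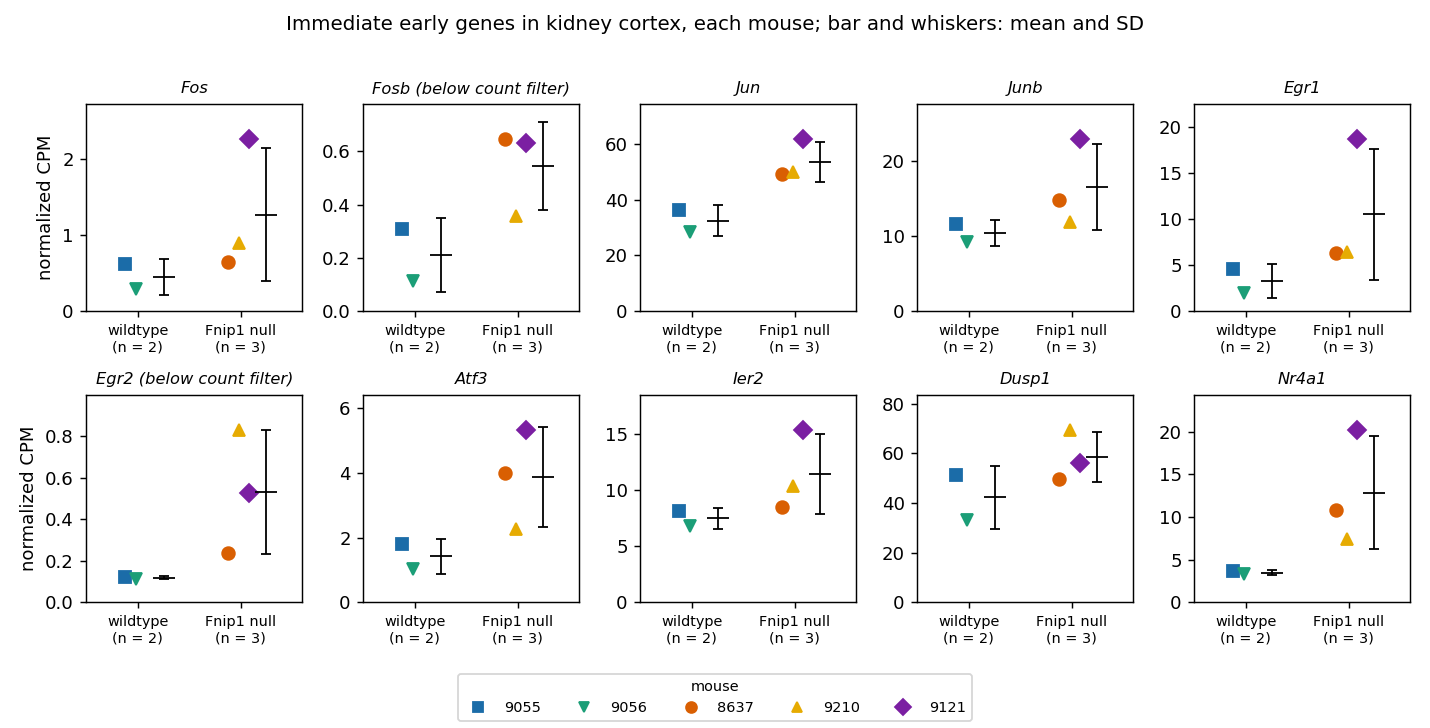
Normalized CPM (y axes, linear from 0) of each immediate early gene in every mouse, by genotype (x axes), with 1 symbol per mouse and a bar with whiskers for mean and SD. The null mice lie above both wildtype mice for 9 of the 10 genes, Dusp1 being the exception, and mouse 9121 is highest for 7.

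In 9 of the 10 genes every null mouse was above both wildtype mice. Fosb and Egr2 are among these 9 but fell below the count filter for testing. Of the 8 genes that were tested 7 had this order, as did 22.9% of all 13874 genes tested. The separation was small for several of the 9 genes, at 1.02 to 1.15 times for Junb, Ier2, Fos and Fosb. Nr4a1 had the widest gap, at 2.03 times. Egr2 followed at 1.90 times, but this was 4 counts in null mouse 8637 against 2 in each wildtype mouse. Without mouse 9121 the order held for the same 9 genes, since removing a null mouse cannot undo it, and 26.5% of all genes had it. When counts were scaled by library size only, which moved the median log2 fold change of all genes from 0.00 to 0.17, Dusp1 also separated, and 37.2% of all genes did.

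None of the 8 genes that could be tested passed an FDR of 5% with a change of at least 2-fold by edgeR's quasi-likelihood test, against 0.404% of all genes tested that did so in the upward direction (56 higher and 18 lower in null kidney). Testing required at least 10 counts in 3 or more of the mice, and Fosb and Egr2 did not reach this. Fos reached it through its 3 null mice, with 1 wildtype mouse also at 10 counts, so its place among the tested genes depends on the genotype in which it was high. The adjusted p-values ran from 0.0800 for Jun to 0.243 for Fos, and 4 of the 8 genes, Jun, Egr1, Atf3 and Nr4a1, had an unadjusted p under 0.05, as did 25.1% of all genes. Other tests on the same counts, which call more genes over the whole set, called some of them. edgeR's exact test called Atf3 and Nr4a1 (adjusted p = 0.0475 and 0.00248) with 3.03% of all genes called higher. The likelihood ratio test called the same pair with 3.44% of all genes. DESeq2 called Egr1, Atf3 and Nr4a1 (adjusted p = 0.0363, 0.0478 and 0.000777) with 2.66%. Without null mouse 8637 the quasi-likelihood test called Nr4a1 (adjusted p = 0.0369) and Egr2 (log2 fold change 2.43, adjusted p = 0.0489), with 4.67% of all genes. Egr2 entered that test only through its 2 null mice at 10 counts or more, with no wildtype mouse at that count, so its call follows in part from the filter and is not read further. Without mouse 9121 none of the 8 was called, and 0.637% of all genes were called higher. When single mice were dropped, the log2 fold change of Egr1 ran between 0.97 (without 9121) and 2.39 (without 9055), that of Fos between 0.77 and 2.13 (without the same mice), and that of Nr4a1 between 1.40 (without 9121) and 2.17 (without 9210). These p-values measure the spread between 5 mice and rest on a wildtype group of 2.

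**Figure D2:**
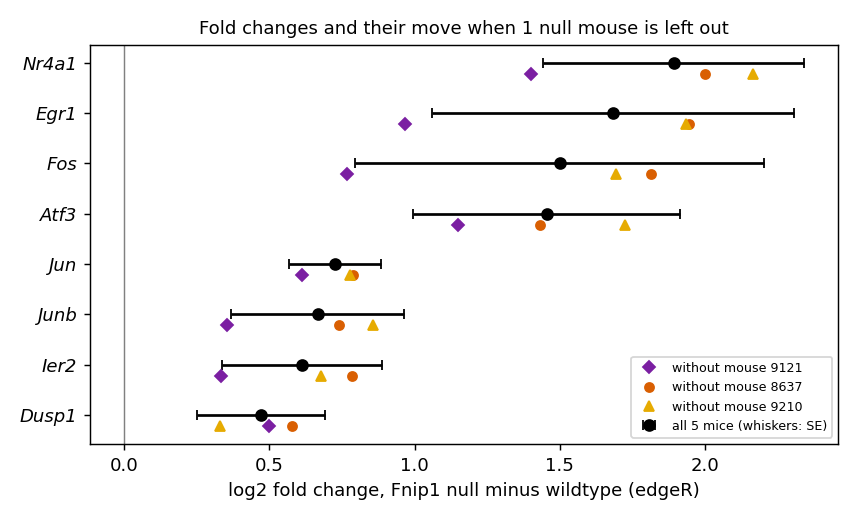
Log2 fold change of the 8 tested immediate early genes (x axis, Fnip1 null minus wildtype by edgeR) with all 5 mice (black, whiskers SE) and with each null mouse left out (coloured symbols). Leaving out mouse 9121 moves Egr1 from 1.68 to 0.97 and Fos from 1.50 to 0.77, while Dusp1 moves from 0.47 to 0.50.

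The 10 genes differed more between mice of the same genotype than most genes did. On the log2 normalized CPM scale (prior count 2), the median distance between the highest and the lowest null mouse was 1.07 over the 10 genes and 0.319 over all genes tested. Without mouse 9121 the distance between the remaining null mice was 0.439 over the 10 genes and 0.195 over all genes, so much of the wider range came with that mouse. Between the wildtype mice it was 0.490 and 0.144. Fos, Egr1, Egr2 and Nr4a1 had the widest range among null mice, at 1.64, 1.54, 1.43 and 1.43, which put Fos above 97.6% of all genes. Jun and Dusp1 were the steadiest, with ranges of 0.33 and 0.48. Fos, Fosb and Egr2 had mean counts of only 16.8, 7.20 and 6.40 per mouse, at which counting error is a large part of any range.

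The order of the mice was shared by many of the genes. All 10 genes were lowest in wildtype mouse 9056, where 25.7% of all genes tested were lowest. For Egr2 this came from scaling alone, since both wildtype mice had 2 counts. Of the 10 genes, 7 were highest in mouse 9121, where 26.1% of all genes were highest. Fosb was highest in mouse 8637, and Egr2 and Dusp1 in mouse 9210. The mean of the 10 genes, each centred on its own mean over the 5 mice on the log2 scale, was 0.17, 0.90 and 0.20 in null mice 8637, 9121 and 9210. It was -0.36 and -0.91 in wildtype mice 9055 and 9056. Centred without mouse 9121, it was 0.40 and 0.43 in null mice 8637 and 9210 and -0.14 and -0.68 in the wildtype mice. The distance between the wildtype mice in this mean was thus close to the distance between wildtype mouse 9055 and null mice 8637 and 9210.

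**Figure D3:**
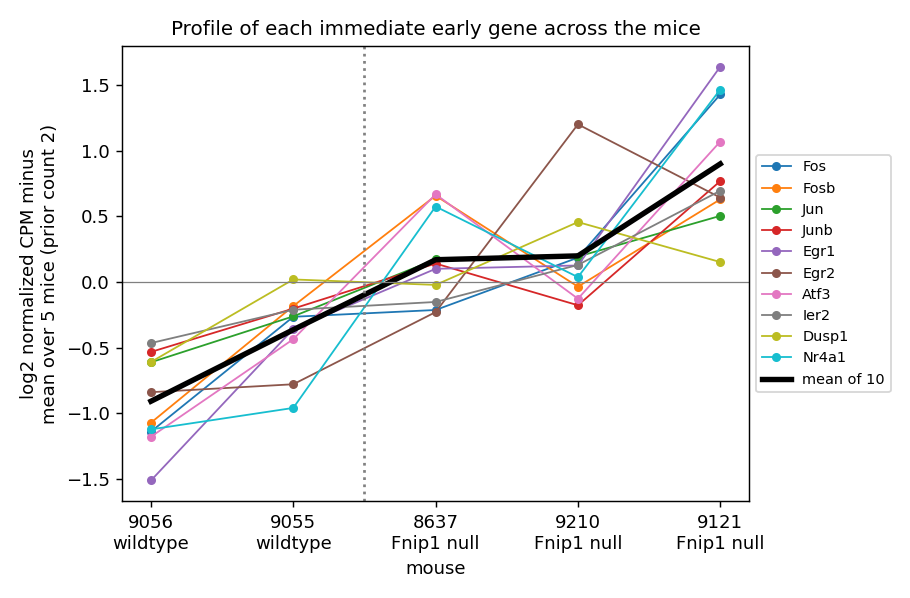
Log2 normalized CPM of each immediate early gene minus its mean over the 5 mice (y axis, prior count 2) in each mouse (x axis), with 1 coloured line per gene and their mean in black; mice are ordered by that mean. The mean runs from -0.91 in wildtype mouse 9056 to 0.90 in null mouse 9121, and Egr2 peaks in mouse 9210 instead.

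The tested genes outside the list with the profile nearest to this mean, by root mean square distance over the 5 mice, included Hcls1, Lrrc32, Asb2 and Runx3, at 0.05, 0.06, 0.09 and 0.10. The median distance was 0.63 over all genes and 0.31 over the 10 genes themselves. Hcls1, Lrrc32, Asb2 and Runx3 lay nearer to the mean than any of the genes that make it up. This follows largely from the search, which took the nearest of all tested genes outside the list. The choice rests on mouse 9121, since without it only 1 of the nearest 5, Hcls1, was again among the nearest 5. Hcls1 was at 6.95, 11.3 and 7.49 normalized CPM in null mice 8637, 9121 and 9210 and at 5.09 and 3.43 in the wildtype mice. Jun was the nearest of the 10 genes at 0.23, and Egr2 the farthest at 0.53.

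Levels of different genes were compared as normalized CPM per kilobase of exon. In wildtype mice Dusp1 and Jun led, at 12.8 ± 3.89 and 10.2 ± 1.74 (SD, n = 2), and did not differ beyond their spread. Ier2 and Junb followed at 4.91 ± 0.62 and 4.55 ± 0.74, again within their spread. Nr4a1, Egr1 and Atf3 were lower, at 0.986 ± 0.082, 0.735 ± 0.409 and 0.657 ± 0.253, and were not separated from each other by more than the spread. Fos was at 0.193 ± 0.101, below Atf3 in both wildtype mice. Egr2 and Fosb were lowest, at 0.0351 ± 0.0021 and 0.0340 ± 0.0222. In the null mice Dusp1 and Jun still led, at 17.7 ± 3.03 and 16.8 ± 2.24 (SD, n = 3), and Egr2 and Fosb were still last, at 0.156 ± 0.088 and 0.0874 ± 0.0263. Fos, the best known gene of this class, was thus a minor transcript here, with 52.7 times less per kilobase than Jun in wildtype kidney.

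The wider immediate early response was described with 43 further genes, of which 37 were tested. None passed the threshold by the quasi-likelihood test, and 19 of the 37 had an unadjusted p under 0.05, or 51.4% against 25.1% of all genes. Log2 fold changes were above 0 in 32 of the 37 and below 0 in 5, with a median of 0.45 against 0.00 over all genes, 50.5% of which were above 0. Every null mouse was above both wildtype mice in 20 of them and below in 1, Tiparp, orders that 22.9% and 23.0% of all genes had. With mouse 9121 left out, 23 of them separated upward, as did 26.5% of all genes, and the median was 0.37. Leaving aside genes that averaged under 1 normalized CPM, Socs3, Gadd45b and Arc had the largest fold changes. Socs3, the feedback inhibitor of cytokine receptors, was at 3.77, 5.49 and 3.68 normalized CPM in null mice 8637, 9121 and 9210. It was at 2.17 and 2.06 in the wildtype mice. Its log2 fold change was 1.03 ± 0.28 (SE), with an adjusted p of 0.109 by edgeR, and 0.82 without mouse 9121. Gadd45b, a growth arrest and DNA damage protein, had 0.99 ± 0.24 (adjusted p = 0.0933, edgeR), and 1.07 without mouse 9121. Arc, the synaptic capsid protein, had 0.92 ± 0.53 (adjusted p = 0.320, edgeR) with overlapping genotypes and its highest value, 6.81 normalized CPM, in mouse 9121, without which it had 0.32. The exact and likelihood ratio tests, which called 3.03% and 3.44% of all genes higher, called Socs3 and the Nr4a1 relative Nr4a3 (named after its values were seen). Nr4a3 passed the count filter through the null mice alone, with 0 wildtype mice at 10 counts. DESeq2, which called 2.66% of all genes higher, called none of the list.

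Of 12 dimer partners of the Fos and Jun proteins, 10 were tested and none passed the threshold, with 3 at an unadjusted p under 0.05 (30% against 25.1% of all genes) and none called by the exact test, the likelihood ratio test or DESeq2. The median log2 fold change was 0.30, with 7 positive and 3 negative. Of the 10, 1 was higher at the FDR alone, as were 0.555% of all genes, and 1 passed both limits with library size scaling, as did 0.483% of all genes in that direction. Fosl2, a further Fos family member, had 0.76 ± 0.13 (adjusted p = 0.0633, edgeR), and 0.67 without mouse 9121. Ddit3, the stress factor CHOP, had 0.51 ± 0.15 (adjusted p = 0.116, edgeR), and 0.52 without that mouse. The genotypes separated in both.

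The genes that carry the signal to these promoters gave smaller differences. All 12 genes for serum response factor, the CREB family and the partners and coactivators of both overlapped between genotypes. Their median log2 fold change was 0.02. Elk3 had the largest, 0.56 ± 0.24 (SE), followed by Elk1 at 0.16 ± 0.16, which were 0.40 and 0.08 without mouse 9121, and Atf1 at -0.14 ± 0.12, which was 0.02 with library size scaling. Of 27 genes of the MAP kinase cascade, 12 were higher and 15 lower by log2 fold change, with a median of -0.04. Braf, the kinase above MEK, was at 50.3, 30.4 and 35.7 normalized CPM in null mice 8637, 9121 and 9210 and at 65.6 and 61.2 in the wildtype mice, with a log2 fold change of -0.71 ± 0.21 (SE) and an adjusted p of 0.118 by edgeR. Without mouse 9121 Braf had -0.56. The exchange factor Sos1 had -0.45 ± 0.14 and the receptor Egfr -0.43 ± 0.29, which were -0.37 and -0.20 without mouse 9121. Of 11 feedback genes 10 were tested, with a median of 0.20. Dusp10, Dusp6 and Spry1, which act on JNK and p38, on ERK and on receptor signaling, had 0.96 ± 0.37, 0.57 ± 0.24 and 0.46 ± 0.33, and 0.80, 0.30 and 0.13 without mouse 9121. That mouse also carried the feedback list's median, which was 0.00 without it. None of the 49 tested genes of these 3 lists passed the threshold by the quasi-likelihood test, the exact test, the likelihood ratio test or DESeq2. At an unadjusted p under 0.05 by the quasi-likelihood test there were 0, 5 and 1 in the order given, or 0%, 18.5% and 10% against 25.1% of all genes.

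**Figure D4:**
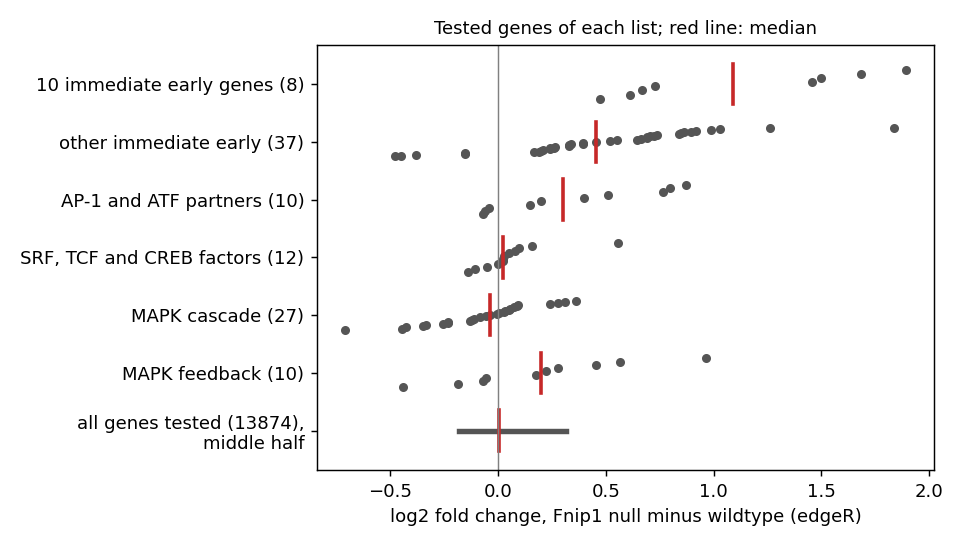
Log2 fold change (x axis, Fnip1 null minus wildtype by edgeR) of every tested gene in each list (rows, number tested in brackets), with the median in red and, for all genes, a bar for the interquartile range. The medians are 1.09 for the immediate early genes that passed the count filter, 0.45 for the other immediate early genes and -0.04 for the MAP kinase cascade.

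Markers of other cell types differed between the genotypes in the same libraries, and their part in the values of the immediate early genes was not tested. The 3 podocyte markers summed to 557 to 664 normalized CPM in null and 310 to 313 in wildtype mice, and Nphs1 passed the threshold. S100a9, a neutrophil gene, did so too. The 5 endothelial markers summed to 251 to 337 against 140 to 237, but 3 of them, Pecam1, Cdh5 and Tek, overlapped and 2 separated upward. The 5 mural and fibroblast markers summed to 160 to 279 against 104 to 137, with 4 separated upward and Myh11 overlapping. Neutrophil markers (5 genes) summed to 6.77 to 10.4 against 0.993 to 1.14, and adipocyte markers (4 genes) to 50.4 to 196 against 28.8 to 34.0. The adipocyte sum separated through Fabp4, and the other 3 markers overlapped between the genotypes. The 8 leukocyte markers overlapped in their sum, at 78.5 to 170 against 88.7 to 106. Their sum was highest in mouse 9121, the mouse in which 7 of the 10 immediate early genes were highest. The endothelial, neutrophil, loop and distal tubule and collecting duct sums were highest in mouse 9121 too. Of the 7 leukocyte markers tested, 4 separated upward, among them Ptprc and Adgre1, and Csf1r separated downward. The sum was also taken without Csf1r, the most abundant of them in wildtype kidney, a choice made with the values in view. It was then 40.3, 107 and 61.8 normalized CPM in null mice 8637, 9121 and 9210. The wildtype mice 9055 and 9056 had 34.1 and 20.3, so this reduced sum separated. Lyz2 made up 15.3, 59.8 and 30.9 of it in the same null mice and 16.3 and 8.29 in the wildtype mice. By itself Lyz2 overlapped between the genotypes. Proximal tubule markers (5 genes) summed to 6693 to 9012 in null and 9299 to 10155 in wildtype mice, but 2 of the 5 separated downward, 2 upward and 1 overlapped. The 4 tubular injury genes summed to 25.4 to 30.1 against 8.86 to 15.1. Only Lcn2 and Krt20 separated, both upward, and Havcr1 and Vcam1 overlapped. Krt20 fell below the count filter, with 12, 4 and 18 counts in null mice 8637, 9121 and 9210. It had 2 and 0 counts in wildtype mice 9055 and 9056. Havcr1 was at 11.1, 0.475 and 3.86 normalized CPM in null mice 8637, 9121 and 9210 and at 1.99 and 1.43 in wildtype mice 9055 and 9056. The 4 loop and distal tubule markers overlapped in their sum, at 7950 to 11509 against 7507 to 8387, and 2 of them separated upward. The 2 collecting duct markers summed to 314 to 401 against 256 to 259. The 6 heat shock genes, which encode chaperones, overlapped in their sum, at 2230 to 4244 against 3299 to 3486, and each of them overlapped as well. The sum, made up mostly of Hspa8, was lowest in mouse 9121, and Hspa1a and Dnajb1 were lowest in mouse 9210.

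Several features that did not enter the choice of the 10 genes were read from the annotation and from sequence. The genes are compact, with a median span of 5938 bases against 24214 for tested genes matched to the annotation by symbol, and a median of 2.5 exons against 8. A RefSeq promoter entry was found for 8 of them, all but Egr1 and Ier2. TGACG was present on either strand within 250 bases before the start in 7 of these 8, Jun being without it, and in 17.8% of all 32851 promoter windows of that length (19.8% of genes). Junb had 1, at 106 bases, Fosb 1, at 60 bases, and Atf3 1, at 7 bases before the start. The palindrome TGACGTCA, which contains the half-site on both strands, was in Dusp1 alone of the 8 and in 1.55% of all windows. The CArG box was in Egr2 alone and in 1.47% of windows, and the TATA box letters TATAAA in Fos alone and in 12.4% of windows. The AP-1 letters TGAGTCA were in none of the 8 and in 4.46% of windows. A match is a run of letters, a missing match says only that the letters are not in this window, and no binding was measured.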

How the data were processed

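Per the labels and the study's methods, the authors filtered low-quality reads, aligned paired-end TruSeq reads to mm10 (TopHat 2.1.0) and deposited unnormalized counts per gene symbol (HTSeq 0.6.1), 1 library per mouse. Annotation and strand setting are not given in the sources used here. HTSeq's summary rows were left out (9.91 to 10.8% of the total without a feature, 28.3 to 31.4% not unique).

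Counts were fitted in R 4.3.3 with edgeR 4.0.16, with library sizes set to all gene counts, TMM factors of 0.914 to 1.09, and the quasi-likelihood test over 13874 genes with Benjamini-Hochberg adjustment. The threshold was an FDR of 5% and 2-fold. Standard errors are the fold change over the root of its F statistic. Each test was checked on simulated data. Alternatives were DESeq2 1.42.0, the likelihood ratio and exact tests of edgeR, other scalings and filters, no fold limit, and leaving out each mouse. Named genes were the 10 immediate early genes, Fnip1, the 3 largest fold changes per pathway list at a mean of at least 1 normalized CPM, the 5 nearest profiles and marker genes, of which a few are not reported here. The genes and lists were chosen with earlier results of these data known. Spans and exon lengths are those of GENCODE M21, matched by symbol. P-values measure the spread between these mice, and counting intervals and floors cover counting error only.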

Additional observations from a re-analysis of the deposited data

How the results depend on the processing

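The log2 fold changes of the tested immediate early genes stayed positive under every setting run, which were 3 other tests, 2 scalings, 2 filters and leaving out each mouse. The number of immediate early genes past the threshold went from 0 to 2 with the exact and the likelihood ratio test, to 3 with DESeq2, and ranged from 0 to 2 with each mouse left out. For the other immediate early genes it went from 0 to 2, 2 and 0 with these tests and ranged from 0 to 3, with Nfkbiz, Rgs1 and Socs3 called without null mouse 8637 and Plk3 without 9121 (named after their values were seen). Rgs1 and, among the 10 genes, Egr2 passed the count filter without 8637 through the null mice alone, so these 2 calls carry little weight. For the AP-1 and ATF partners it was 1 with library size only and with no fold limit. Over all genes the count of 74 became 565, 628 and 482 with these tests in the same order and 145 with no filter on low counts. With each mouse left out it ranged from 0 to 948, being 948 without 8637, 136 without 9121 and 0 without 9210, 9055 or 9056. Library size only gave 67 higher and 10 lower in place of 56 and 18. Fnip1 ranged from -1.61 to -1.40 with each mouse left out and missed the FDR without 9210, 9055 or 9056 (adjusted p = 0.121, 0.218 and 0.510, edgeR). Atf1 reversed to 0.024 with library size only. The wildtype level of Dusp1 per kilobase was 18.3 by its longest transcript in place of 12.8. In settings chosen after seeing the data, the median range among null mice went from 1.07 to between 0.439 (without 9121) and 0.806, 1 of the 5 nearest profiles was shared without 9121, and the number of immediate early genes with every null mouse above both wildtype mice was 9 or 10 with any mouse left out and 10 with library size only. The causes of these changes were not tested. No paired analysis was possible because the replicate numbers are mouse numbers that the genotypes do not share. Depth limits Fos, Fosb and Egr2, whose wildtype values rest on 2 to 10 counts per mouse.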

Other observations

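Among the other immediate early genes, several not covered by the rule for named genes were read after their values were seen. The antiproliferative gene Btg2 was at 26.8, 32.3 and 31.7 normalized CPM in null mice 8637, 9121 and 9210 and at 19.0 and 14.3 in wildtype mice 9055 and 9056, with a log2 fold change of 0.86 ± 0.16 (SE) and an adjusted p of 0.0688 by edgeR, the lowest of that list. Klf4, a Krüppel-like factor of epithelium and endothelium, was at 12.4, 11.5 and 11.6 against 7.76 and 6.92. Neither was highest in mouse 9121 by a margin like that of Egr1 or Fos. The mineralocorticoid target Sgk1 was at 194, 199 and 323 normalized CPM against 147 and 146, with its peak in mouse 9210, as for Egr2 and Dusp1. Ctgf, a matricellular protein gene, was at 150, 151 and 162 against 119 and 78.8, whereas its relative Cyr61 was at 13.7, 32.1 and 8.85 against 20.7 and 26.9, with overlapping genotypes. The EGF receptor ligand gene Hbegf had a negative log2 fold change of -0.48 ± 0.29 (SE) and overlapped as well.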
